A study of Mus musculus with 4 samples.

Results

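The genes described here are the mouse chromosome 16 orthologues of human chromosome 21 genes that lie outside the segment around Dyrk1a, 59 genes fixed as a list of names. A gene entered the results where at least 1 of its spots had a value on all 4 arrays of the series, which held for 53 of the 59, among 11791 genes measured that way in all. The 59 genes have 130 spots on the array, of which 84 had a value on all 4 arrays, and the rule that picks them uses position and orthology, not a measured value.

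The study set RNA of 152F7 transgenic mouse embryos against RNA of wild-type embryos, both in the FVB background, from the E12.5 telencephalon, the embryonic forebrain. In 152F7 mice a yeast artificial chromosome adds human DNA with DYRK1A, a kinase gene of the Down syndrome region, to the mouse genome. Each genotype was 1 pool of RNA, and the 2 pools were hybridised together on 4 two-colour arrays, 2 with 152F7 in Cy5 and 2 with wild type in Cy5. The arrays were therefore read as technical replicates. No test between genotypes is possible, no p-value is given, and the SD over arrays leaves out the spread between embryos.

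Human chromosome 21 is present in 3 copies in Down syndrome, and the long arm of that chromosome corresponds to stretches of mouse chromosomes 16, 17 and 10. The stretch on mouse chromosome 16 holds genes as unlike as the amyloid precursor gene App, the superoxide dismutase gene Sod1, a cluster of interferon receptors and the transcription factors Olig1, Olig2, Runx1, Erg and Ets2. Mouse models of Down syndrome that carry an extra copy of much of this stretch overexpress many of these genes together. In the 152F7 line the added DNA covers a small piece of the region, and the genes described here lie outside it.

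Values are log ratios of 1 pool over the other, read as log2, and neither labels nor values settle which genotype is on top. A positive value says that a gene was higher in the numerator pool, and a negative one that it was higher in the denominator pool. All 4 arrays were taken to have the same pool on top, because Xist, the RNA of the inactive X chromosome, kept 1 sign on them. It was at -3.53 and -3.38 with 152F7 in Cy5 and at -3.33 and -3.27 with wild type in Cy5. A ratio of Cy5 over Cy3 changes sign when the dyes are exchanged between the same samples. The array titles put a sample marked B first and one marked A second on every array. If those samples differ, such a ratio can keep 1 sign, and Xist cannot decide the direction. The same pool on top is therefore an assumption of the unturned reading, which the calls below use. The reading with the arrays of 1 orientation turned is given beside the results. Across the 20923 spots measured on every array, arrays of like orientation correlated at 0.862 and 0.905 and arrays of unlike orientation at -0.661 to -0.596 (Pearson's r, where spots do not count as independent replicates). Across the 53 genes described here the values were 0.545 and 0.730 for like orientation and 0.025 to 0.103 for unlike. Over all spots, those high in 1 orientation therefore tended to be low in the other, and the reason was not tested. A value was present for 53.7% to 65.3% of the 44290 spots of an array, and intensities were not used here, so the signal over background is unknown.

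In the unturned reading the pools also differed in tissue and sex markers. If A and B in the array titles are separate samples, a difference between them could also keep 1 sign on every array. The design cannot tell that from a difference between genotypes. All 7 lens markers were higher in the numerator pool on every array, with means from 0.17 to 1.21, as were 6 of 9 markers of mesenchyme and meninges (1 lower, Twist1) and 4 of 6 of red cells. The Y-linked genes Eif2s3y and Kdm5d had means of 2.10 and 0.80. Among telencephalon markers 10 were measured, including Emx1, Emx2, Pax6 and Tbr1, with 1 higher, Lhx2 at 0.28, and 1 lower, Gsx2 at -0.11. A ratio holds no level, so summed marker levels per pool cannot be given, and in pooled tissue fewer cells of a type and less RNA per cell cannot be told apart. What part these differences had in the values below was not tested.

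As a whole the chromosome 16 orthologues differed little between the pools. Their median was 0.018 ± 0.021 (SD of the median over the 4 arrays), against 0.0021 for all measured genes, and none of the 53 reached 1.5-fold. The means ran from -0.19 for Runx1 to 0.24 for Pcp4. A gene was counted as past the threshold where its mean was at least 0.1 in size on the log2 scale, which is 1.07-fold, with the same direction on every array. By this rule 3 of the 53 genes were higher in the numerator pool, which is 5.66% against 6.07% of all measured genes, and 1 was lower, which is 1.89% against 3.45%. The 3 higher genes were Dscam, Hunk and Adamts1 and the lower one was Erg. At 1.5-fold the share of all measured genes was 0.0763% higher and 0.00848% lower. These shares are near or below the background, and the list showed no larger share of called genes than the array as a whole. Without the demand on direction 4 genes were higher, 7.55% against 8.13% of all measured genes, and 3 lower, 5.66% against 5.81%, the added ones being Pcp4, Donson and Runx1.

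The spread of the means was close to that of all genes. The quartiles of the 53 means were -0.025 and 0.064, against -0.037 and 0.042 for all measured genes. The median size of a mean was 0.043 for the orthologues and 0.039 for all genes. Of the 53 genes 34 had a mean above 0, which is 64.2%, against 51.5% of all genes. On single arrays 35 and 34 of the 53 were above 0 with 152F7 in Cy5, and 28 and 24 with wild type in Cy5. These counts are 66.0% and 64.2% with 152F7 in Cy5 and 52.8% and 45.3% with wild type in Cy5. All measured genes shifted the same way, with 58.5% and 55.5% above 0 with 152F7 in Cy5 and 44.8% and 45.6% with wild type in Cy5.

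**Figure D1:**
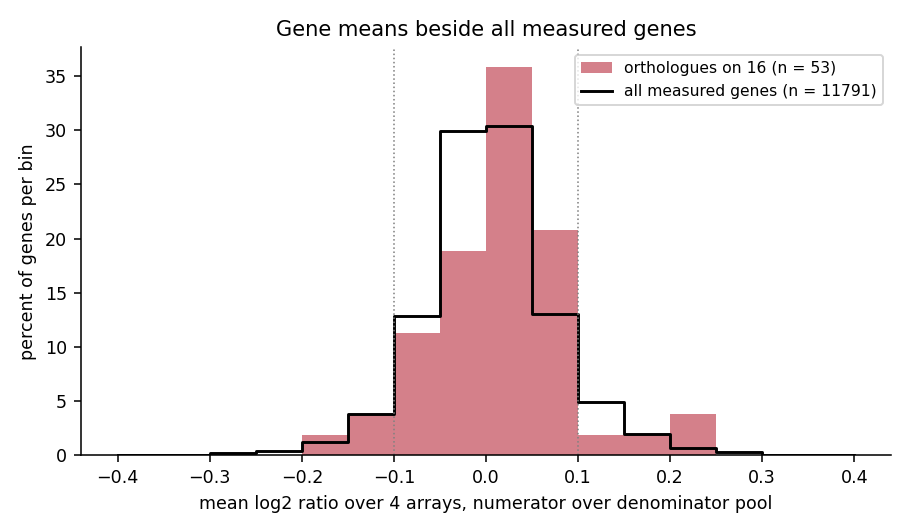
Percent of genes per bin of 0.05 on the log2 scale by mean log2 ratio over 4 arrays, for the 53 measured orthologues (bars) and all 11791 measured genes (line), with dotted lines at the threshold of 0.1 in either direction. Both sets centre near 0, and 33 of all genes lie outside the axis while none of the orthologues does.

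**Figure D2:**
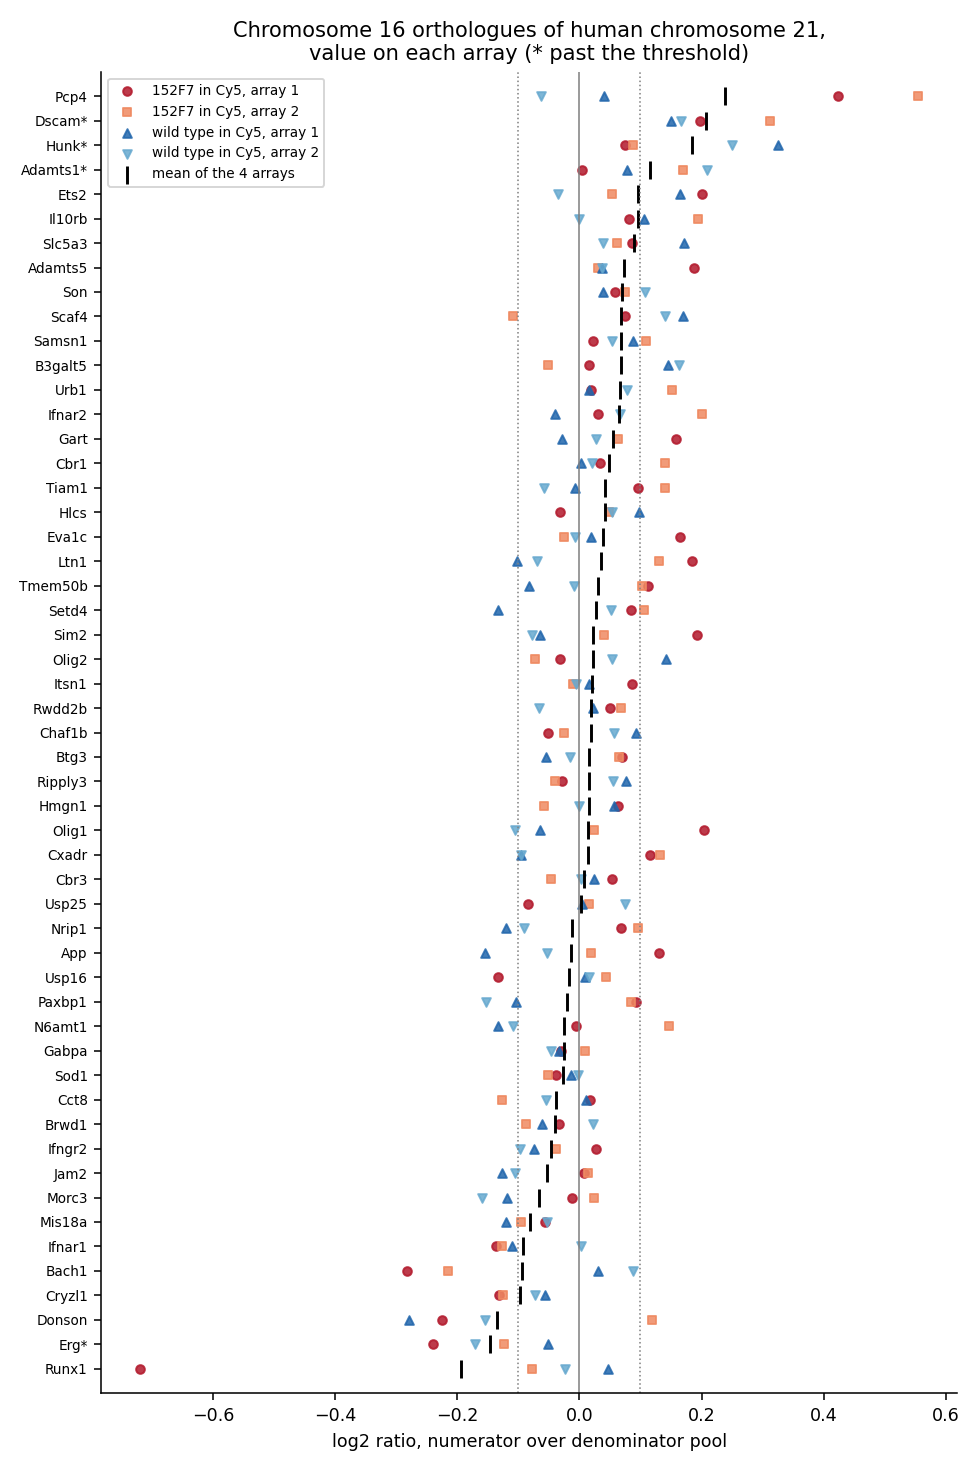
Log2 ratio of the numerator over the denominator pool on each of the 4 arrays for the 53 measured orthologues, sorted by mean, with black bars for the means, dotted lines at the threshold and a star at the 4 genes past it. Dscam, Hunk, Adamts1 and Erg have all arrays on 1 side of 0, while the means of Pcp4 and Runx1 come from 2 arrays and from 1 array.

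Promoters of the 4 genes past the threshold are shown because their means are at least 0.1 in size with 1 direction on every array. Each line gives the 250 bases before the start of transcription on the gene's own strand, from RefSeq with build GRCm38.p6, and capitals mark GGGCGG, the GC box, and CCGGAA, a core of ETS factor sites, on either strand.
Dscam, chr16:97170736-97170985, minus strand: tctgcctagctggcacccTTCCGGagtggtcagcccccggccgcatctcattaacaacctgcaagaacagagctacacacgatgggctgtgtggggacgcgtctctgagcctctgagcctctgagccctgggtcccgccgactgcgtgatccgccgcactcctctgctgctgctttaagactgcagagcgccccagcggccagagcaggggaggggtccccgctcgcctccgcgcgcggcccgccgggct
Hunk, chr16:90386147-90386396, plus strand: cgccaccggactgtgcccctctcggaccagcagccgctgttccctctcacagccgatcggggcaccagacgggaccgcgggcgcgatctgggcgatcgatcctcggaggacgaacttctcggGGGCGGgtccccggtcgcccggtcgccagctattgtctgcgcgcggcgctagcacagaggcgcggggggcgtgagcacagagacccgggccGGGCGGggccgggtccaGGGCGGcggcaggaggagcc
Adamts1, chr16:85803114-85803363, minus strand: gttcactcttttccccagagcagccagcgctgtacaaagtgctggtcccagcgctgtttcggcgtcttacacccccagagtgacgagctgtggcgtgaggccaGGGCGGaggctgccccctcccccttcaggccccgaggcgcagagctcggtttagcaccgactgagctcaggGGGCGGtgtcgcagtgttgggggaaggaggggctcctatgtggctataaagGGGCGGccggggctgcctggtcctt
Erg, chr16:95586594-95586843, minus strand: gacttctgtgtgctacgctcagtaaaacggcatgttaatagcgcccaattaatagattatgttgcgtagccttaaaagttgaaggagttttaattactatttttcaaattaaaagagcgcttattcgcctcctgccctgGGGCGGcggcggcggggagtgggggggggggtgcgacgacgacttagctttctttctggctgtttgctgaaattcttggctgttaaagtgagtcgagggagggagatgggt
For Erg the table holds 3 windows, and the one shown is the first it lists. The Hunk and Adamts1 windows each hold 3 copies of GGGCGG and the Erg window holds 1, while the Dscam window has none and instead holds 1 copy of CCGGAA, on the opposite strand. No 2 matches overlap. Windows were found for 49 of the 59 genes, 60 windows in all, of which 55% held GGGCGG and 16.7% held CCGGAA. Among 12294 windows of all measured genes the shares were 57.3% and 20.9%, so neither share was larger in the orthologues. A match describes these letters and says nothing of binding.

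Among adhesion and cell surface genes, Dscam was higher in the numerator pool and the other measured ones were not past the threshold. Dscam, an adhesion protein through which neurons recognise their own branches and those of other cells, had 0.197 and 0.312 on the arrays with 152F7 in Cy5 and 0.150 and 0.167 with wild type in Cy5. All 4 values lie above 0, but the orientations do not overlap, and they differ by 0.096 on average. The median size of that difference was 0.0955 over all measured genes. The mean was 0.21 ± 0.07 (SD, n = 4 technical arrays), which is 1.15-fold. Dscam was the only one of the 53 genes past a threshold of 0.2 on the log2 scale with 1 direction on every array. It kept its call without any 1 of the 4 arrays, with means from 0.18 to 0.24. Of 7 neuron markers 2 were also higher and 0 lower, Nefm at 0.33 and Nefl at 0.29, which encode neurofilaments, and what part neuron content had in the Dscam value was not tested.

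App, the precursor of the amyloid peptide of Alzheimer's disease, had a mean of -0.015 ± 0.12 over 3 measured spots that disagreed. One spot had 0.208 and 0.226 with 152F7 in Cy5 and -0.417 and -0.293 with wild type in Cy5, so its sign differed between orientations. Another had 0.088, 0.031, 0.080 and 0.098 in the same order, all above 0. The 3 spot means ran from -0.069 to 0.074, so App has no settled direction. Jam2, a junctional adhesion molecule, had the lowest mean of the group at -0.053 ± 0.074, and Cxadr, an adhesion protein that also serves as a virus receptor, had 0.014 ± 0.13. Eva1c, a membrane protein that binds SLIT guidance ligands, had 0.038 ± 0.086. Ncam2, Chodl and Bace2, which encode a neural adhesion molecule, a lectin and a protease related to the one that cuts App, had no spot with a value on all 4 arrays.

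Among genes of endocytosis and signalling, Hunk was past the threshold, and Pcp4 had a larger mean without being so. Hunk encodes a kinase related to AMPK, and it had 0.075 and 0.087 with 152F7 in Cy5 and 0.326 and 0.250 with wild type in Cy5. All 4 values lie above 0, but the orientations do not overlap. The mean was 0.18 ± 0.12, and it was between 0.17 and 0.20 without any 1 array. Pcp4, a small calmodulin-binding protein of neurons, had 0.423 and 0.555 with 152F7 in Cy5 and 0.040 and -0.063 with wild type in Cy5. Both arrays of 1 orientation were high and both of the other were near 0. Its mean of 0.24 ± 0.30 therefore has no stable direction, and its difference between orientations, 0.50, was the largest of the 53 genes.

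The other genes of this group stayed within 0.07 of 0. Samsn1, an adaptor of blood cells, had 0.023, 0.109, 0.087 and 0.054 (152F7 in Cy5 first), all above 0, with a mean of 0.068 ± 0.038. Of 4 measured myeloid markers 1 was higher, Lyz2 at 0.57, and 0 lower, with a list median of 0.016. Tyrobp had 0.08, while Cx3cr1 and Aif1 had -0.054 and -0.049. The part of myeloid cells in the Samsn1 value was not tested. Tiam1, which activates the GTPase Rac, had 0.042 ± 0.091, and Tmem50b, a membrane protein, had 0.031 ± 0.094. Itsn1, an endocytic scaffold, had the lowest mean of the group, 0.021 ± 0.045 over 3 spots. Synj1, the phosphatase that strips the coat from synaptic vesicles, and Sh3bgr were not measured on all 4 arrays.

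The 11 transcription factors were all measured, and 1 of them, Erg, was past the threshold. Erg, an ETS factor of endothelial cells, had -0.240 and -0.123 with 152F7 in Cy5 and -0.052 and -0.171 with wild type in Cy5. All 4 values lie below 0 and the orientations overlap. The mean was -0.15 ± 0.08, and it stayed between -0.18 and -0.12 without any 1 array. It rests on 1 of its 2 spots, which was among the 25% with the largest SD between replicate arrays, as was the Adamts1 spot. Of 9 endothelial markers 1 was higher in the numerator pool, Kdr, a receptor for VEGF, at 0.24, and 0 were lower. The list median was 0.035, and what part endothelial content had in the Erg value was not tested.

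Runx1, a runt-domain factor of blood formation, had the lowest mean of all 53 genes, -0.19 ± 0.35, and it rests on 1 array. Its values were -0.719 and -0.078 with 152F7 in Cy5 and 0.046 and -0.023 with wild type in Cy5. Without array 1 with 152F7 in Cy5 the mean was -0.033. Ets2, another ETS factor, had the highest mean of the group, 0.096 ± 0.11, with values of 0.20 and 0.053 with 152F7 in Cy5 and 0.164 and -0.035 with wild type in Cy5. Gabpa, an ETS factor of nuclear genes for mitochondrial proteins, had -0.025 ± 0.024 over 3 spots.

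The 2 dye orientations lay on opposite sides of 0 in 7 of the 11 transcription factors, beside 30.8% of all measured genes, and a difference of this small group was not tested. Bach1, a repressor regulated by haem, had -0.282 and -0.215 with 152F7 in Cy5 and 0.031 and 0.087 with wild type in Cy5. The 2 orientations lay on opposite sides of 0, and the mean was -0.095 ± 0.18. Olig1 and Olig2, helix-loop-helix factors of the oligodendrocyte lineage, had means of 0.015 ± 0.14 and 0.023 ± 0.095. Their 2 orientations differed in opposite ways. Olig1 had 0.204 and 0.024 with 152F7 in Cy5 and -0.064 and -0.105 with wild type in Cy5. Olig2, which also marks ventral progenitors, had -0.031 and -0.073 with 152F7 in Cy5 and 0.141 and 0.054 with wild type in Cy5. Of 6 measured markers of the ventral telencephalon 0 were higher and 1 lower, the patterning factor Gsx2 at -0.11. Nrip1, a corepressor of nuclear receptors, Sim2, a helix-loop-helix factor with a PAS domain, Paxbp1, a partner of PAX3 and PAX7, and Ripply3, a corepressor of T-box factors, also had opposite signs in the 2 orientations, with means between -0.020 and 0.023.

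None of the 9 genes of chromatin, replication and cell division was past the threshold. Donson, a protein of the replication fork, had the lowest mean at -0.13 ± 0.18, from values of -0.224 and 0.120 with 152F7 in Cy5 and -0.278 and -0.154 with wild type in Cy5. One of its arrays lies above 0, and its 2 spots had means of -0.21 and -0.062. Mis18a, which marks centromeres for the deposition of their histone, was below 0 on every array with a mean of -0.081 ± 0.032, just outside the threshold, and its 2 spots had like means of -0.086 and -0.076. Setd4, a methyltransferase, had the highest mean of the group at 0.026 ± 0.11. Chaf1b, a subunit of chromatin assembly factor 1, and Hmgn1, a nucleosome-binding protein, had 0.018 ± 0.068 and 0.015 ± 0.056. Brwd1, a bromodomain protein with 4 measured spots, had -0.040 ± 0.047 with spot means from -0.11 to 0.026. Morc3, a chromatin ATPase, Btg3, an antiproliferative protein, and N6amt1, a methyltransferase, had means of -0.066, 0.0165 and -0.025.

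The 4 receptor genes of the interferon cluster lay on both sides of 0, and none was past the threshold. Il10rb, a subunit shared by the receptors of interleukin 10 and the lambda interferons, had 0.082 and 0.195 with 152F7 in Cy5 and 0.106 and -0.001 with wild type in Cy5, with a mean of 0.096 ± 0.081. Ifnar1, a subunit of the type I interferon receptor, had -0.136 and -0.126 with 152F7 in Cy5 and -0.110 and 0.002 with wild type in Cy5, with a mean of -0.092 ± 0.064. Each of them has 1 array near 0 and the other 3 on 1 side, and the 2 sides are opposite. Ifnar2, which pairs with Ifnar1, had 0.064 ± 0.10, and Ifngr2, a subunit of the interferon gamma receptor, had -0.046 ± 0.055.

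Of the 7 genes of protein turnover and folding 1 was past the threshold. Adamts1, a secreted protease that cuts matrix proteoglycans, had 0.004 and 0.169 with 152F7 in Cy5 and 0.078 and 0.209 with wild type in Cy5. All 4 values lie above 0, the lowest of them barely. The mean was 0.12 ± 0.09, and the call was lost without array 2 with 152F7 in Cy5 (mean 0.074) and without array 2 with wild type in Cy5 (mean 0.082), and also when each array was centred on its median. Its relative Adamts5 had 0.187, 0.030, 0.037 and 0.037 with a mean of 0.073 ± 0.076, of which 1 array gives most. Markers of mesenchyme and meninges, cells that make matrix, were higher for 6 of 9 genes with a list median of 0.21, Dcn at 0.43 and Col1a1 at 0.34 among them, and their part in the Adamts1 value was not tested. Ltn1, the ubiquitin ligase of stalled ribosomes, had 0.184 and 0.131 with 152F7 in Cy5 and -0.102 and -0.070 with wild type in Cy5, on opposite sides of 0. Cct8, a subunit of the chaperonin that folds actin and tubulin, had the lowest mean at -0.038 ± 0.067. The deubiquitinases Usp16 and Usp25 and the RWD domain gene Rwdd2b had means of -0.017, 0.0026 and 0.019.

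None of the 8 genes of metabolism and transport was past the threshold. Cryzl1, a relative of quinone oxidoreductases, came closest, with -0.132 and -0.125 with 152F7 in Cy5 and -0.057 and -0.072 with wild type in Cy5. All 4 values lie below 0 with little spread between replicate arrays, and the mean of -0.096 ± 0.038 falls just short of the threshold. Slc5a3, a transporter of myo-inositol, was above 0 on every array with a mean of 0.090 ± 0.058. Another of its spots, which lacked a value on 1 array, had -0.627 and -0.051 with 152F7 in Cy5 and -0.054 with wild type in Cy5, so its spots disagree. Sod1, the copper-zinc superoxide dismutase, has 12 spots on the array, of which 3 had values on all 4 arrays, and its mean was -0.026 ± 0.022. Those 3 spot means ran from -0.083 to 0.034. Gart, an enzyme of purine synthesis, had 0.055 ± 0.078, and the carbonyl reductase genes Cbr1 and Cbr3 had 0.049 ± 0.062 and 0.0082 ± 0.043. Hlcs, which attaches biotin to carboxylases, had 0.042 ± 0.054, and B3galt5, a galactosyltransferase, had 0.068 ± 0.10.

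The 3 measured genes of RNA and ribosome biogenesis had almost the same mean. Son, a splicing cofactor of nuclear speckles, had 0.058 and 0.074 with 152F7 in Cy5 and 0.038 and 0.108 with wild type in Cy5, all above 0, with a mean of 0.069 ± 0.029. One of its 3 spots had a mean of 0.14 and another 0.0030. Scaf4, a protein that binds RNA polymerase II, had 0.069 ± 0.12, and Urb1, a ribosome biogenesis factor, had 0.066 ± 0.064. Rbm11, an RNA-binding splicing regulator, was not measured on all 4 arrays.

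**Figure D3:**
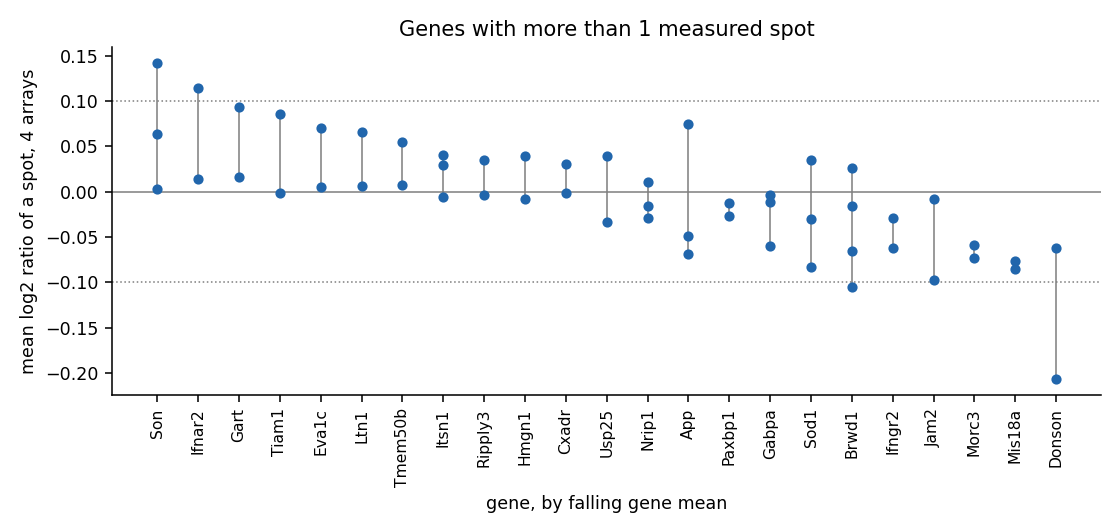
Mean log2 ratio over 4 arrays of each spot for the 23 orthologues with more than 1 measured spot, sorted by gene mean, with a line that joins the spots of a gene and dotted lines at the threshold. Spots of Donson, App, Son and Brwd1 lie farthest apart, by 0.13 to 0.14.

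Spots of 1 gene differed by less than 0.2 for each of the 23 orthologues with more than 1 measured spot. The widest spread was 0.14, for Donson and App, and in 10 of the 23 genes the spot means had both signs. Each of the 4 genes past the threshold rests on 1 measured spot, so no second spot bears on them.

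The values of single genes differed between dye orientations. The median size of that difference was 0.096 for the 53 genes and 0.0955 for all measured genes, and the median SD between replicate arrays of like orientation was 0.052, against 0.047. In 15 of the 53 genes both arrays of 1 orientation lay above 0 and both of the other below, which is 28.3% against 30.8% of all measured genes. All 4 arrays had the same sign in 13 genes, which is 24.5% against 22.7%. With the arrays of 1 orientation turned, as if every value were Cy5 over Cy3, 3 genes would be higher in 152F7 (Cxadr, Ltn1 and Paxbp1, against 9.07% of all measured genes) and 1 lower (Bach1, against 4.61%), and the median would be 0.019 against 0.015 for all genes. None of the 4 genes past the threshold would be past it in that reading, and Hunk and Adamts1 would change sign.

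**Figure D4:**
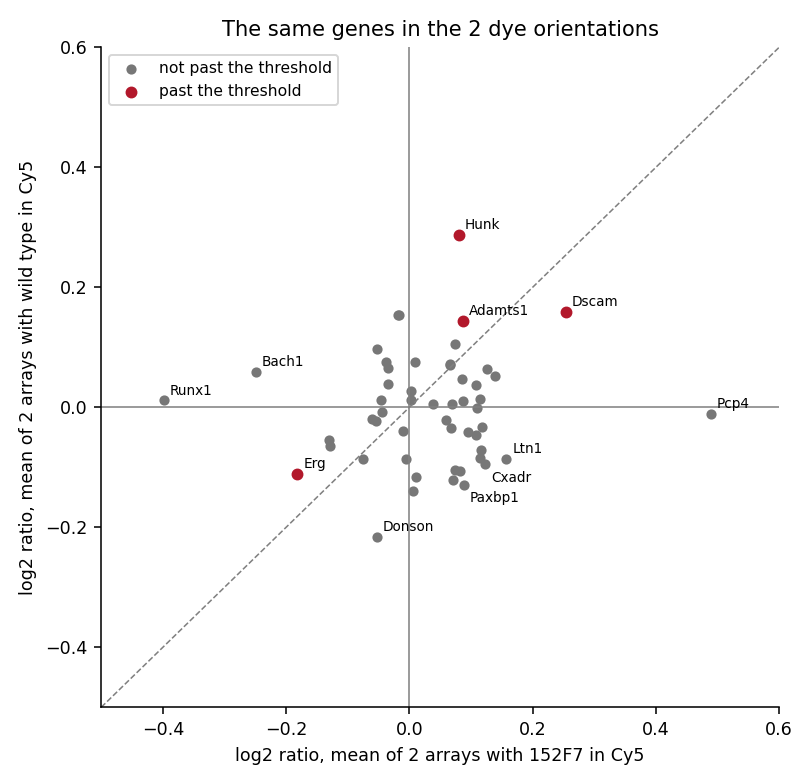
Mean log2 ratio of the 2 arrays with 152F7 in Cy5 (horizontal) and of the 2 arrays with wild type in Cy5 (vertical) for the 53 measured orthologues, with a dashed line where both are equal. Dscam, Hunk, Adamts1 and Erg lie in the quadrants of like sign, while Pcp4, Runx1 and Bach1 lie far out along 1 orientation only.

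Along chromosome 16 the 4 genes past the threshold were not next to each other. In the order of the RefSeq gene table, 46 measured orthologues precede the Dyrk1a segment and 7 follow it, with medians of 0.017 and 0.068. Of the 46 genes 2 were higher and 0 lower past the threshold, and of the 7 genes 1 was higher and 1 lower. Other genes of chromosome 16 were not placed in this order. Among the 53 measured genes described here, the nearest before the segment were Morc3, Chaf1b, Sim2, Hlcs and Ripply3. Their median was 0.018 and none was past the threshold. The nearest of the 53 after the segment were Erg, Ets2, Brwd1, Hmgn1 and B3galt5, with a median of 0.015 and Erg past the threshold. Within the segment Dyrk1a had a mean of 0.028 ± 0.13, Ttc3 0.040 ± 0.28, Pigp -0.066 ± 0.18 and Vps26c -0.0052 ± 0.072, and none of them was past the threshold. Dyrk1a, Ttc3 and Pigp were above 0 on both arrays with 152F7 in Cy5 and below 0 on both with wild type in Cy5. In the turned reading their means were 0.10, 0.24 and 0.15, each past the threshold, Vps26c had 0.014, and the segment's median was 0.12 against 0.0145 for all measured genes. Which reading holds decides the direction of these genes. The array titles name the Cy5 sample first, but no label states which way the ratio runs. Xist, Eif2s3y and Kdm5d each kept 1 sign on all 4 arrays. A ratio of Cy5 over Cy3 would change sign if both orientations compare the same 2 samples. It need not do so if the samples marked A and B in the array titles differ. If the unturned reading holds, the turned means of Dyrk1a, Ttc3 and Pigp measure a difference between dye orientations, not between pools. If the turned reading holds, those means are ratios of 152F7 over wild type. Kcnj6 had no spot with a value on all 4 arrays. Whether these mouse probes also bind RNA of the human copy is not known here.

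**Figure D5:**
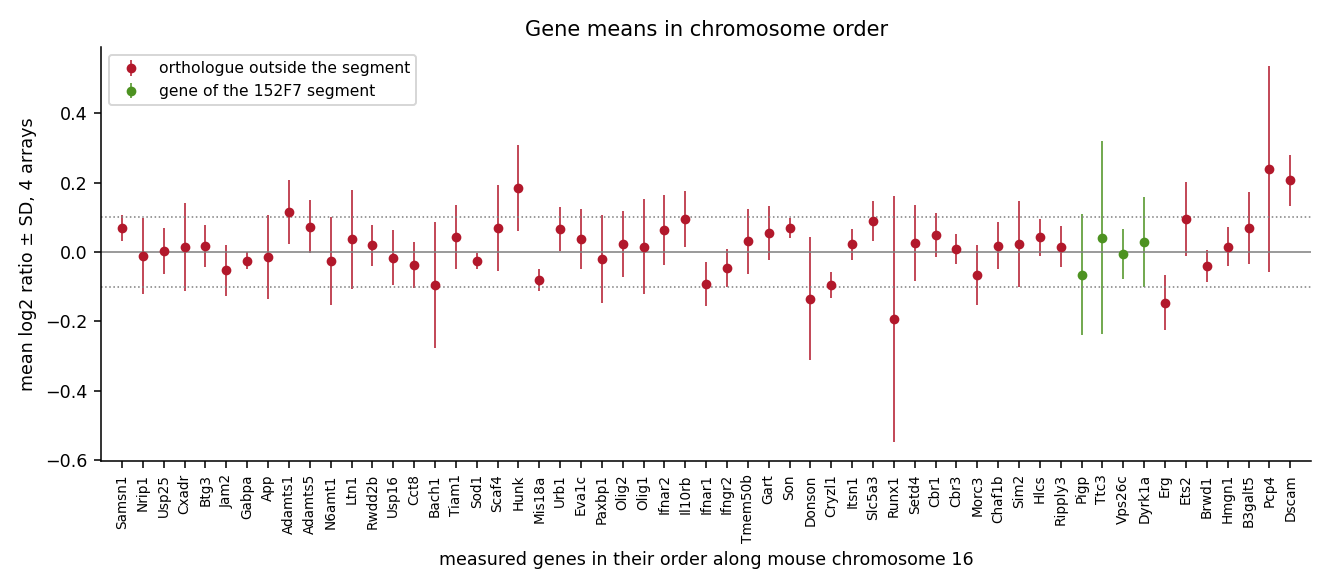
Mean log2 ratio ± SD over 4 technical arrays for the measured orthologues and 4 genes of the 152F7 segment, marked by colour, in their order along mouse chromosome 16, with dotted lines at the threshold. Means scatter around 0 along the whole stretch, and the 4 segment genes have SDs larger than the size of their means.

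Genes with neighbouring starts did not always go the same way. In the RefSeq windows the starts of Itsn1 and Cryzl1 lie 569 bases apart on opposite strands, and their means were 0.021 and -0.096. Son and Gart lie 852 bases apart in the same arrangement, with means of 0.069 and 0.055. Gabpa and Atp5j, which encodes a subunit of mitochondrial ATP synthase, lie 148 bases apart with means of -0.025 and -0.067. In the segment, Ttc3 and Pigp start 29 bases apart, with means of 0.040 and -0.066, but on each of the 4 arrays both had the same sign, and in the turned reading their means were 0.24 and 0.15.

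Other orthologues of human chromosome 21 were set beside these genes from lists that hold none of them. Of 17 further measured genes on chromosome 16, 3 were higher (17.6%, against 6.07% of all measured genes) and 1 lower (5.88%, against 3.45%), with a median of -0.0065. The higher ones were Kcne2, a potassium channel subunit of choroid plexus, at 0.34, Clic6, an intracellular chloride channel protein, at 0.15, and Dop1b, a protein of membrane traffic, at 0.14. The lower one was the mitochondrial ribosomal gene Mrpl39 at -0.10. Of 34 genes on chromosomes 10 and 17, 5 were higher (14.7%) and 1 lower (2.94%), with a median of 0.025. In the turned reading the medians of these 2 lists were 0.017 and 0.0039, in the opposite order. Its highest member was the lens crystallin Cryaa at 0.95, followed by the basement membrane collagen Col18a1 at 0.16, and its lower one was the splicing factor U2af1 at -0.12. The differences between these lists were not tested, since the pools give 1 value for each genotype.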

How the data were processed

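The deposited table holds 1 log ratio per spot and array for 44290 spots of Agilent 60-mer arrays, per the labels' design text. The authors' scanning, background correction, normalization and filter, and the log base and direction, have no description in the labels or files used here. The deposited values were read as log2: the largest size of any spot, 5.759, exceeds the 4.82 that a log10 ratio of raw 16-bit intensities can reach, and natural logs are tried as an alternative. Per the labels' protocols, total RNA was extracted with Trizol, amplified and labelled with Cy3 or Cy5.

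Spots were named through the platform annotation: 32042 have 1 symbol, 47 several (not used) and 12201 none. All 130 spots of the 59 genes matched the GRCm38.p6 gene table by identifier. Each gene was given the mean of its spots that had values on all 4 arrays. Calls need a mean of at least 0.1 in size and 1 direction on every array. The sign of WT-in-Cy5 arrays was not turned. The naming rule took genes past the threshold and the 3 nearest to it on each side with 1 direction. It also took the 5 with the largest difference between dye orientations, and the highest and lowest of each role group. Other genes given with array or spot values, such as App, Olig1, Olig2, Samsn1, Adamts5 and Sod1, were chosen after their values were seen. Members and lists were chosen with earlier results of these data known. Python 3.11.15, pandas 2.3.3, NumPy 2.4.6 and Matplotlib 3.10.9 were used.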

Additional observations from a re-analysis of the deposited data

Results flagged for a closer look

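Over the 4 arrays, Runx1 had 1 array far from the others at -0.719, and Adamts5 had 1 at 0.187, both on array 1 with 152F7 in Cy5. In sets of 4 interchangeable values such a gap arises by chance in about 1 in 20, and 2 of 53 genes had one. The 4 arrays are 2 pairs that differ in dye orientation, so that rate does not strictly apply to them.

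In 15 genes the 2 dye orientations lay on opposite sides of 0, which was not tested, and the share of such genes was 28.3% against 30.8% of all measured genes. The difference between orientations, 152F7 in Cy5 less wild type in Cy5, was -0.3075 for Bach1, -0.1495 for Olig2, -0.1135 for Chaf1b and -0.10 for Ripply3. It was 0.102 for Btg3, 0.127 for Jam2, 0.151 for Tiam1, 0.1535 for Tmem50b and 0.1785 for App. It was 0.187 for Sim2, 0.188 for Nrip1, 0.1985 for Olig1, 0.2175 for Paxbp1, 0.219 for Cxadr and 0.243 for Ltn1.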

How the results depend on the processing

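Of 280 recomputed means of named genes 264 moved by less than the SD over arrays and kept their direction where they were past the threshold. The exceptions past the threshold were Adamts1 at -0.0285 and Hunk at -0.10 with 1 orientation turned, Dscam at 0.048 and Erg at -0.035 in that reading, and Dscam at 0.30 when values were read as natural logs. For settings that leave out 1 array or 1 orientation, a move below the SD over arrays is fixed by arithmetic. Centring the arrays left the means of the named genes unchanged. The 264 is therefore no measure of stability. The counts of 3 higher and 1 lower became 13 and 5 with 152F7 in Cy5 alone (median 0.066), beside 19.8% and 11.4% of all measured genes, and 6 and 8 with wild type in Cy5 alone, beside 11.3% and 15.3%. In both, the difference between orientations is not averaged out. Leaving out 1 array in turn gave 3 to 6 higher and 1 to 3 lower, with medians from 0.0140 to 0.0250. Of all measured genes 6.8% to 7.1% were then higher and 3.9% to 4.8% lower. There were 6 higher without replicate 2 with wild type in Cy5 and 3 lower without replicate 1 with wild type in Cy5. Without replicate 2 of either orientation 2 were lower. Natural logs gave 6 and 3, beside 9.0% and 6.0% of all measured genes. Spots with a value in each orientation gave 2 lower, beside 3.5%, and no demand on direction gave 3 lower, beside 5.8%. Leaving out the noisiest 25% of spots gave 0 lower, beside 3.3%, since the spots of Erg and Adamts1 are among them. Ifnar2 then takes the place of Adamts1 among the 3 higher, beside 6.9%. A threshold of 0.2 gave 1 and 0, beside 1.2% and 0.5%, and 1.5-fold gave 0 and 0, beside 0.0763% and 0.00848%. Arrays centred on their medians gave 2 higher, without Adamts1, beside 6.1% of all measured genes. No paired analysis was possible because the result comes from no test, with 1 pool per genotype. The number of arrays limits the precision.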

Other observations

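Single low values gathered on 1 array. Spots with a gene symbol at or below -0.5 on 1 array and on no other numbered 256 on array 1 with 152F7 in Cy5, 52 on array 2 of that orientation, and 8 and 6 on arrays 1 and 2 with wild type in Cy5. The 256 include spots of Runx1, Donson, Slc5a3 and Rbm11, at -0.719, -0.644, -0.627 and -0.604. None of the orthologues' spots was low in this way on the other 3 arrays.

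The 6 orthologues without a spot measured on all 4 arrays had scattered values. Rbm11 had -0.604 on array 1 with 152F7 in Cy5 and -0.002 and -0.058 with wild type in Cy5. Synj1 had 0.002 on array 2 with 152F7 in Cy5 and -0.067 on array 2 with wild type in Cy5. Bace2 had -0.044 on array 1 with 152F7 in Cy5 and 0.185 on array 1 with wild type in Cy5 from 1 spot, and -0.038 on array 2 with 152F7 in Cy5 from the other. Sh3bgr had 0.048 and -0.003 with wild type in Cy5 from 1 spot and 0.149 on array 2 of that orientation from the other. Ncam2 and Chodl had a value on 1 array with wild type in Cy5 each, -0.040 and -0.137.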
